A study of Mus spretus with 8 samples.

Results

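Cell cycle and DNA replication genes were followed in livers of male Mus spretus, a wild mouse species, after dietary exposure to p,p'-DDE, a long-lived residue of the insecticide DDT. The genes were 43 cyclins, kinases, transcription factors, replication proteins, mitotic proteins and inhibitors. They were chosen by name, with earlier results of these data known, so the list was not blind to the data. Of the 43 genes, 42 had a probe on the array, out of 22471 genes with a probe. Ccnb1 was not analysed here. The DDE group held 4 mice of the inbred SPRET/EiJ strain, 7 weeks old at the start, fed for 30 days on Harlan diet that carried p,p'-DDE at 450 mg/kg in corn oil. The control group held 4 mice of the same strain and age that ate Harlan diet with corn oil alone for the same time. Total liver RNA of each mouse was labelled with Cy3 and measured on a 1-colour Agilent array, 1 array per mouse. Values are log2 signals as the authors normalized them, and each gene is represented by its probe with the highest mean over the 8 arrays. In bulk liver RNA, fewer cells of a type and less RNA per cell cannot be told apart.

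A cell enters the cycle when D-type cyclins with Cdk4 or Cdk6, and then E-type cyclins with Cdk2, phosphorylate the retinoblastoma protein and release E2F factors. E2F factors switch on genes for loading the MCM helicase at replication origins, for copying DNA and for making deoxynucleotides. Later, Cdk1 with cyclins A and B drives mitosis, and genes of that stage are switched on largely by Foxm1 and B-Myb. Hepatocytes of adult mice rarely divide, but they re-enter the cycle after loss of liver tissue, and activators of the nuclear receptor CAR are known to drive hepatocytes of laboratory mice into DNA synthesis.

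The exposure itself was plain in the RNA: Cyp2b10, a cytochrome P450 that CAR switches on, had 15.94, 15.94, 15.99 and 16 in DDE livers against 8.79, 8.82, 8.87 and 9.57 in control livers. Signals reach no higher than 16 on these arrays, so its difference may be larger than measured. Probes for odorant and pheromone receptors, genes of sensory neurons, gave the background: a value counts as above it past the 0.95 quantile of those probes on the same array, which lay at 7.58, 7.56, 7.63 and 7.81 in DDE livers 1 to 4 and at 7.74, 7.66, 7.71 and 7.62 in control livers 1 to 4. Patches of bright or dim spots (stained spots) covered 0.521% to 7.59% of the DDE arrays and 1.16% to 9.50% of the control arrays, with DDE 4 and control 4 the most affected. Of all 42957 probes, 1005 were higher and 284 lower after DDE in the limma fit at a Benjamini-Hochberg adjusted p under 0.05.

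Cell cycle genes ranged from bright to undetected in these livers. Of the 42 genes, 14 were above background in all 8 livers, 14 in 4 to 7 livers, 11 in 1 to 3 livers and 3 in no liver. In at least 4 livers 28 of the 42 were above background (66.7%, against 48.6% of all genes on the array), in all 8 livers 33.3% against 38.0%, and in none 3 genes against 25.5%. The 14 genes seen in every liver were Ccnd1, Ccnd2, Ccnd3, Cdk4, E2f2, Mcm3, Mcm6, Mcm7, Cdt1, Pcna, Rrm1, Birc5, Cdkn1b and Rb1. These are mostly genes of the entry into the cycle and of the replication machinery, and 1 of the 13 measured genes of G2 and mitosis, Birc5, was among them. The 3 genes never above background were Ccna2 (cyclin A2), Ccne2 (cyclin E2) and Top2a, the topoisomerase that untangles replicated chromosomes. With the 0.99 quantile of the receptor probes as the background, 7 genes in place of 28 were above it in at least 4 livers, namely Ccnd1, Ccnd3, Cdk4, Mcm6, Mcm7, Birc5 and Cdkn1b.

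More of the genes were above background in 3 of the DDE livers than in any control liver. The count was 32, 30, 30 and 23 of 42 in DDE livers 1 to 4 and 24, 23, 22 and 25 in control livers 1 to 4. DDE 4 lay inside the control range. Over all genes of the array, 52.1%, 52.9%, 50.7% and 46.7% were above background in DDE livers 1 to 4, against 48.6%, 50.2%, 49.4% and 51.7% in control livers 1 to 4. DDE 4 also had the lowest share of all genes seen and the highest background level, while DDE 1 and DDE 2 had the lowest background levels, and the part of these levels in the counts was not tested.

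**Figure D1:**
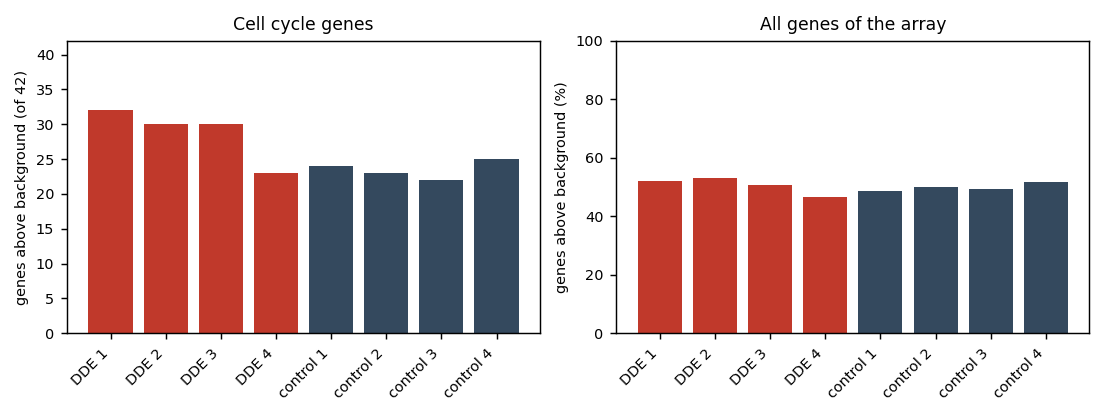
Cell cycle genes above the background of each array (left, of 42) and all genes above it (right, in percent), 1 bar per liver. DDE 1, DDE 2 and DDE 3 stand at 32, 30 and 30 genes and DDE 4 at 23, against 22 to 25 in the control livers.

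Of the 42 genes, 1 rose after DDE, 0 fell and 41 did not pass the test. The share called, 2.38%, stood near that of all genes, of which 3.35% were called (2.58% higher and 0.774% lower), and near the 3% of all probes (2.34% higher and 0.661% lower). Counted by a raw p below 0.05, 11 of the genes were higher (26.2%) and 0 lower, against 11.4% higher and 4.57% lower among all genes. The groups did not overlap in 7 genes, all higher in DDE livers, or 16.7% against 8.48% higher and 4.06% lower among all genes. Genes that are seen at all are called more often: of the 10916 genes above background in at least 4 livers, which include 66.7% of the 42 genes and 48.6% of all, 6.77% were called (5.22% higher and 1.55% lower), 20.9% were higher and 8.13% lower at the raw p, and 14.7% lay without overlap higher and 5.99% lower. A gene can pass this filter through 1 group alone, as E2f1 did with 4 DDE and 0 control livers above background. The filter thus favours genes that differ, and its part in these shares was not tested. The median log2 difference of the 42 genes was 0.16, against 0.015 over all genes. Over all genes above background in at least 4 livers it was 0.10. Mean signal was higher in DDE livers in 25 genes and lower in 17, or 59.5% higher, against 52.6% of all genes. Of the 28 genes above background in at least 4 livers, 71.4% were higher in mean, against 58.4% of all such genes. Of the same 28 genes, 3.57% were called, 39.3% were higher and 0 lower at the raw p. Their groups lay without overlap higher in 25% and lower in 0, and their median difference was 0.34.

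**Figure D2:**
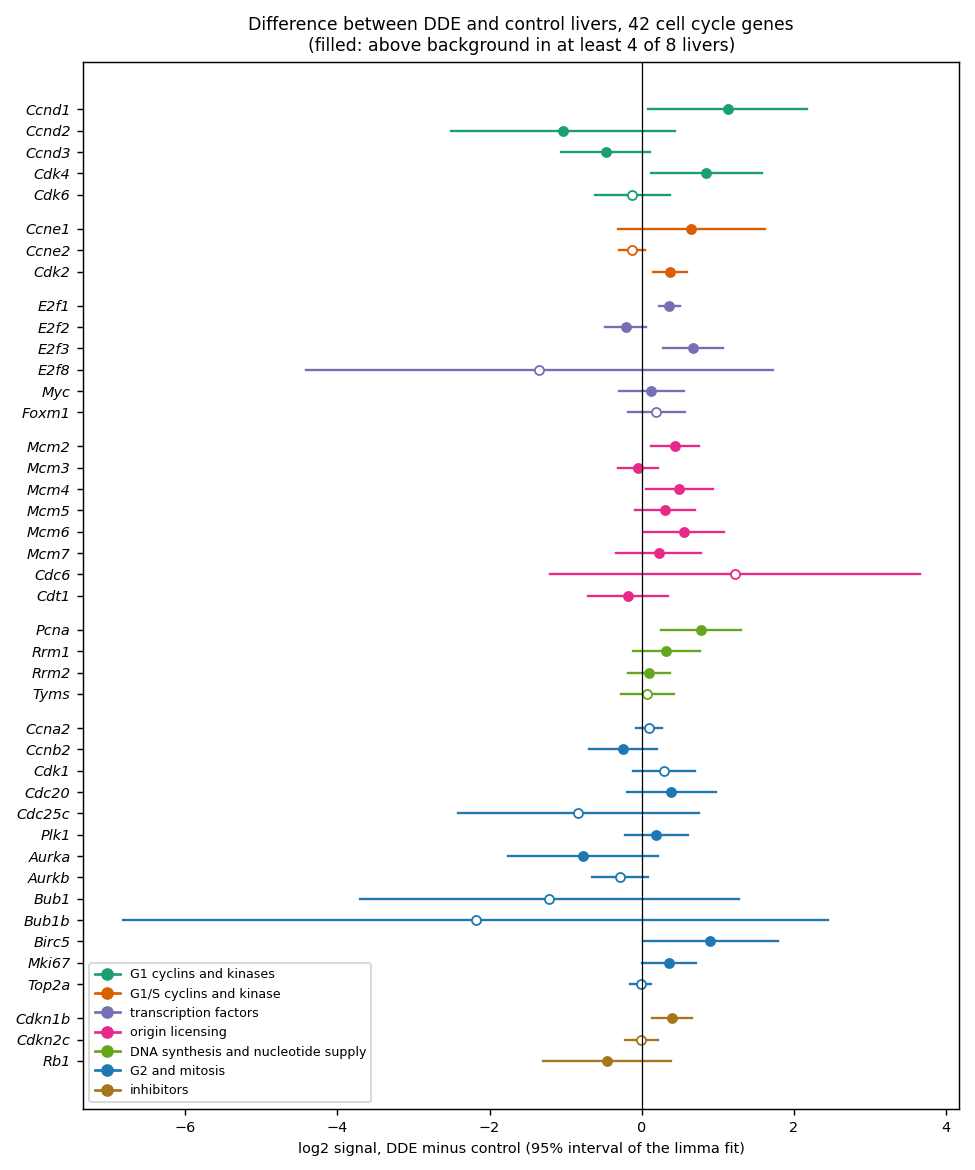
Difference in log2 signal, DDE minus control, for the 42 genes by role. Points are the limma estimates and lines their 95% intervals, and filled points mark genes above background in at least 4 of 8 livers. E2f1 has a short interval above 0, while E2f8, Cdc6, Cdc25c, Bub1 and Bub1b have long intervals because 1 array of a group was far above the rest.

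Among G1 cyclins and their kinases, 0 of 5 genes passed the test, and the D-type cyclins differed in opposite directions. Ccnd1 encodes cyclin D1, the main D-type cyclin of hepatocytes re-entering the cycle. It had 9.36, 9.49, 9.75 and 11.30 in DDE livers against 9.27, 8.93, 8.79 and 8.38 in control livers. Every DDE liver lay above every control liver, DDE 4 far above the others and DDE 1 close to the highest control. The difference was 1.13 (95% interval 0.09 to 2.18, limma adjusted p = 0.287), and it was 0.54 without control 4 and DDE 4. Cyclin D2 (Ccnd2) had 8.47, 8.46, 8.45 and 8.36 in DDE livers, nearly the same in all of them, and 9.16, 8.34, 8.91 and 11.46 in control livers. Control 4 set most of that spread, and the difference of -1.03 became -0.34 without control 4 and DDE 4 (adjusted p = 0.538 with all arrays). Cyclin D3 (Ccnd3) averaged 11.45 ± 0.34 in DDE livers and 11.93 ± 0.42 in control livers (SD, n = 4 each, limma adjusted p = 0.465), and its other probe differed by -0.03.

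Cdk4, the kinase partner of the D-type cyclins, was higher in every DDE liver at its brightest probe. It had 11.58, 11.59, 11.55 and 11.75 in DDE livers against 11.27, 11.07, 10.96 and 9.79 in control livers, a difference of 0.84 (95% interval 0.12 to 1.57, limma adjusted p = 0.247). The DDE livers lay within a narrow band, and control 4 stood well below the other controls. The next probe of Cdk4 had 9.99, 10.89, 10.65 and 9.99 in DDE livers against 9.62, 8.75, 8.69 and 8.29 in control livers, with 3 of its DDE spots stained (1.54, limma adjusted p = 0.0619). The remaining probe had 9.72, 10.04, 9.95 and 9.77 in DDE livers against 8.95, 8.75, 9.23 and 14.71 in control livers, where control 4 was a stained spot. Apart from that spot, all DDE values lay above all control values at each of the 3 probes. Cdk6, the other D-cyclin kinase, was at or below background in all DDE livers and above it in control 1 alone, on a stained spot.

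At the step from G1 into S phase, 0 of 3 genes passed. Cdk2, which with cyclin E starts DNA replication, had 7.92, 8.01, 7.84 and 7.86 in DDE livers against 7.62, 7.41, 7.73 and 7.40 in control livers. All 4 DDE livers and 1 of 4 control livers were above background, the groups did not overlap, and the difference was 0.37 (95% interval 0.15 to 0.59, limma adjusted p = 0.0997). Ccne1, the gene of cyclin E1, had 8.53, 8.53, 7.92 and 9.89 in DDE livers against 8.40, 8.12, 8.14 and 7.61 in control livers, overlapping groups with DDE 4 on top (0.65, limma adjusted p = 0.558). The difference was 0.26 without DDE 4 and 0.11 without control 4 and DDE 4. Its dimmer probe had 9.03, 8.44, 8.29 and 7.16 in DDE livers against 8.29, 6.89, 7.07 and 7.31 in control livers (0.84, limma adjusted p = 0.482). The 2 probes disagree on DDE 4, the highest liver at one and the lowest DDE liver at the other. Ccne2 lay between 6.88 and 7.01 in DDE livers and between 7.01 and 7.24 in control livers, below background throughout.

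**Figure D3:**
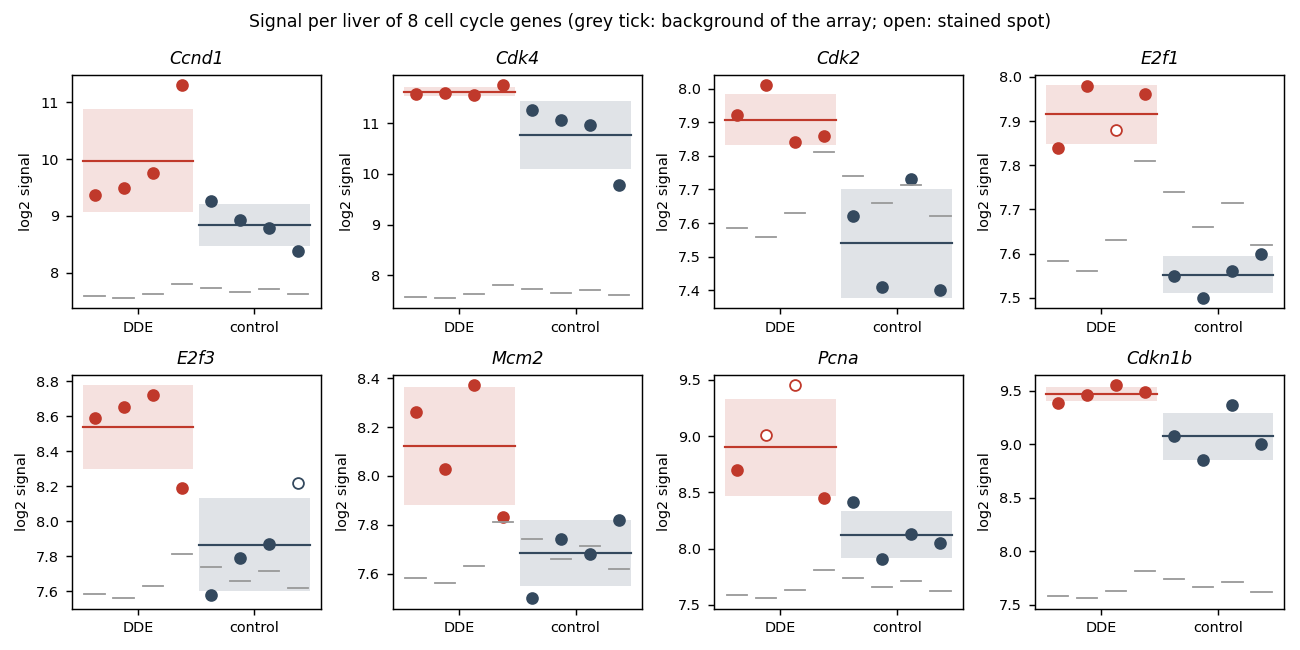
Log2 signal per liver of 8 cell cycle genes, DDE livers on the left of each panel (replicates 1 to 4) and control livers on the right. Lines are group means, bands 1 SD, grey ticks the background of each array and open points stained spots. In all panels but that of E2f3 every DDE liver lies above every control liver.

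E2f1 rose, the only 1 of the 42 genes past the threshold. It encodes the activating E2F factor that turns on S-phase genes once freed from the retinoblastoma protein. It had 7.84, 7.98, 7.88 and 7.96 in DDE livers, all just above background, against 7.55, 7.5, 7.56 and 7.6 in control livers, all below it. The fitted difference was 0.36 (95% interval 0.22 to 0.50, limma adjusted p = 0.028). With control values raised to background, the DDE mean was 1.17-fold higher. All 4 DDE values lay below the 0.99 quantile of the receptor probes, which was 8.63, 8.92, 8.30 and 10.2 in DDE livers 1 to 4. They thus stayed within the range of the background probes, and no minimum fold can be read from them. The rise rested on a small change with little spread in both groups, and the DDE 3 value was a stained spot. The call was kept in 9 of 19 alternative analyses and lost without any 1 of DDE 1, DDE 2, DDE 3, control 1, control 2 or control 3 (adjusted p = 0.0574 to 0.0885). Over the 19 alternatives its adjusted p was 0.0200 to 0.234, with a positive difference in all 19.

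E2f3, another activating E2F factor, had a larger difference that missed the threshold. It had 8.59, 8.65, 8.72 and 8.19 in DDE livers against 7.58, 7.79, 7.87 and 8.22 in control livers (0.67, 95% interval 0.27 to 1.07, limma adjusted p = 0.0939). DDE 4 lay just below control 4, whose spot was stained, and without stained spots E2f3 passed (0.79, adjusted p = 0.0379). It passed also without control 4 and DDE 4 (0.91, adjusted p = 0.0209), without DDE 4 alone (adjusted p = 0.0497), with array weights (adjusted p = 0.0166), and when arrays were renormalized after removal of stained spots (adjusted p = 0.0262). In the other 14 of 19 alternatives it did not pass, with adjusted p up to 0.256. Its dimmer probe, above background in 2 livers, differed by 0.35. E2f2 averaged 8.38 ± 0.14 in DDE livers and 8.59 ± 0.18 in control livers (SD, n = 4 each, limma adjusted p = 0.476). Myc, a growth-promoting transcription factor, averaged 7.97 ± 0.10 in DDE livers and 7.84 ± 0.37 in control livers, a difference of 0.13 with a 95% interval of -0.30 to 0.56. Foxm1, the activator of mitotic genes, was above background in 3 of 4 DDE livers and 0 of 4 control livers, with overlapping values (0.19, limma adjusted p = 0.633). E2f8, a repressor among the E2F factors, lay at or below background in every liver but control 4, where the spot was stained.

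Origin licensing genes, which load the replicative helicase on DNA, had a median difference of 0.37 with 0 of 8 past the threshold. Mcm2, a helicase subunit like Mcm3 to Mcm7, had 8.26, 8.03, 8.37 and 7.83 in DDE livers against 7.5, 7.74, 7.68 and 7.82 in control livers. The groups did not overlap, though DDE 4 and control 4 nearly met (0.44, 95% interval 0.12 to 0.75, limma adjusted p = 0.159). Mcm4 had 8.12, 8.13, 8.31 and 7.62 in DDE livers against 7.18, 7.51, 7.79 and 7.72 in control livers (0.49, limma adjusted p = 0.273). Mcm6 had 9.18, 9.16, 9.40 and 8.81 in DDE livers against 9.12, 8.24, 8.70 and 8.27 in control livers (0.56, limma adjusted p = 0.304). In both genes DDE 1, DDE 2 and DDE 3 lay above all controls and DDE 4 lay among them. Mcm5 differed by 0.30 and Mcm7 by 0.22, and in Mcm3 the groups were nearly equal (-0.05, 95% interval -0.32 to 0.21). DDE 4 was the lowest DDE liver for each of the 6 helicase subunits.

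Cdt1, a factor that loads the helicase at origins, had 8.60, 8.61, 8.53 and 8.03 in DDE livers against 8.81, 9.08, 8.24 and 8.36 in control livers (-0.18, limma adjusted p = 0.697). Cdc6, its partner, was above background in DDE 1 alone, with 11.85 at 1 probe against 7.22, 7.25 and 7.52 in the other DDE livers and 7.10 to 7.35 in control livers. The other probe of Cdc6 had 7.22 in DDE 1 and was at or below background in all 8 livers.

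Genes of DNA synthesis and nucleotide supply were higher in mean signal in 4 of 4, with 0 past the threshold. Pcna, the sliding clamp of the DNA polymerases, had 8.70, 9.01, 9.45 and 8.45 in DDE livers against 8.41, 7.91, 8.13 and 8.05 in control livers. The groups did not overlap, and DDE 4 lay close to the highest control (0.78, 95% interval 0.25 to 1.3, limma adjusted p = 0.134). DDE 2 and DDE 3, its highest values, were stained spots, and without them the difference was 0.45 (adjusted p = 0.24). Rrm1, the large subunit of ribonucleotide reductase, averaged 8.42 ± 0.10 in DDE livers and 8.10 ± 0.39 in control livers (SD, n = 4 each, limma adjusted p = 0.518). Its partner Rrm2, the subunit made mainly in S phase, differed by 0.09 (95% interval -0.19 to 0.37), and Tyms, thymidylate synthase, by 0.07 with 1 of 4 livers above background in each group.

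Of 13 genes of G2 and mitosis, 0 passed, and their median difference was -0.015. Only 6 of the 13 were above background in at least 4 livers. Of those 6, Birc5, Mki67, Cdc20 and Plk1 were higher in mean signal and Aurka and Ccnb2 lower. Birc5, the gene of survivin in the chromosomal passenger complex, had 10.04, 10.01, 8.86 and 9.32 in DDE livers against 9.38, 8.83, 8.43 and 7.98 in control livers. The groups overlapped, with DDE 1 and DDE 2 on top (0.90, 95% interval 0.0127 to 1.79, limma adjusted p = 0.324). Control 4, its lowest value, was a stained spot. All 3 probes of Birc5 had positive differences, from 0.26 to 0.90. Mki67, whose protein Ki-67 marks cycling cells, had 8.24, 7.99, 8.03 and 8.42 in DDE livers against 8.18, 7.74, 7.70 and 7.65 in control livers. Control 1 lay inside the DDE range (0.35, 95% interval -0.00287 to 0.71, limma adjusted p = 0.34), DDE 1 was a stained spot, and the other probe of Mki67 differed by -0.03. Cdc20, an activator of the anaphase-promoting complex, averaged 8.37 ± 0.19 in DDE livers and 7.98 ± 0.50 in control livers (SD, n = 4 each, limma adjusted p = 0.568). Plk1, a kinase of mitotic entry, differed by 0.19 and was above background in 3 of 4 DDE livers and 1 of 4 control livers.

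The remaining mitotic genes were lower in mean signal, were above background in few livers, or both. Aurka, the Aurora kinase of the spindle poles, had 8.10, 7.65, 7.67 and 7.41 in DDE livers against 8.27, 9.73, 8.18 and 7.72 in control livers, with control 2 far above the rest (-0.77, limma adjusted p = 0.484). Ccnb2, the gene of cyclin B2, averaged 7.94 ± 0.29 in DDE livers and 8.19 ± 0.28 in control livers (SD, n = 4 each, limma adjusted p = 0.631). Aurkb, the Aurora kinase of the chromosomal passenger complex, was above background in control 2 alone, on a stained spot. Cdk1, the mitotic kinase, had 7.62, 7.34, 7.36 and 8.10 in DDE livers, with DDE 1 and DDE 4 above background and DDE 4 on a stained spot, and 7.17 to 7.38 in control livers. Its other probes differed by 0.01 and -0.29. Bub1 and Bub1b, kinases of the spindle checkpoint, and Cdc25c, the phosphatase that activates Cdk1, were above background in control 4 alone at the probes used, each on a stained spot (11.86, 15.92 and 10.25). At those probes these genes lay between 7.13 and 7.27 in DDE livers. Of the 10 probes of Bub1, 4 had positive and 6 negative differences (median -0.02), and none was above background in at least 4 livers. Single unstained values above background were 8.07 in DDE 1 and 7.85 in control 3 at 1 probe, and 8.09 in control 4 at another. Ccna2 lay between 7.34 and 7.44 in DDE livers and between 7.20 and 7.45 in control livers, and Top2a between 7.16 and 7.28 in DDE livers and between 7.18 and 7.31 in control livers.

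Inhibitors of the cycle held 0 genes past the threshold. Cdkn1b encodes p27, which holds cyclin E and Cdk2 in check. It had 9.39, 9.46, 9.55 and 9.49 in DDE livers against 9.08, 8.85, 9.37 and 9 in control livers, without overlap and with DDE 1 next to control 3 (0.40, 95% interval 0.13 to 0.67, limma adjusted p = 0.134). Its other probe was above background in 1 liver and differed by -0.13. Cdkn2c, the gene of the Cdk4 and Cdk6 inhibitor p18, averaged 7.52 ± 0.11 in DDE livers and 7.53 ± 0.14 in control livers (SD, n = 4 each). Rb1, the retinoblastoma gene, had 8.45, 8.49, 8.47 and 8.17 in DDE livers against 8.5, 8.39, 8.51 and 10 in control livers, and control 4 was a stained spot. Of its 10 probes, 4 had positive and 6 negative differences, with a median of -0.04.

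DDE 4 was the lowest DDE liver in 23 of the 42 genes, and control 4 the lowest control liver in 19, though also the highest in 11. These counts were not made over all genes of the array, so whether they are particular to the cell cycle genes was not tested. Relative to the control median of each gene, the origin licensing genes lay at a median of 0.52, 0.30, 0.42 and 0.04 in DDE livers 1 to 4, and at 0.13, 0.00, 0.07 and -0.13 in control livers 1 to 4. For the genes of G2 and mitosis the same medians were 0.04, -0.01, 0.00 and -0.09 in DDE livers 1 to 4 and 0.09, 0.02, -0.04 and -0.04 in control livers 1 to 4. DDE 1, DDE 2 and DDE 3 thus stood above all control livers in the licensing genes, and no DDE liver stood above control 1 in the mitotic genes. Of the licensing genes 7 of 8 were above background in at least 4 livers, but of the mitotic genes only 6 of 13. Probes at background can show little difference, so the mitotic medians rest in large part on genes not seen here. The difference between these roles, and the part of detection in it, was not tested. Single genes did not all follow their role. DDE 1, DDE 2 and DDE 3 all lay above every control in Mcm2, Mcm4 and Mcm6 but not in Mcm3, Mcm5 or Mcm7. Among mitotic genes Birc5, Mki67, Cdc20, Plk1 and Cdk1 had DDE livers above control 1.

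**Figure D4:**
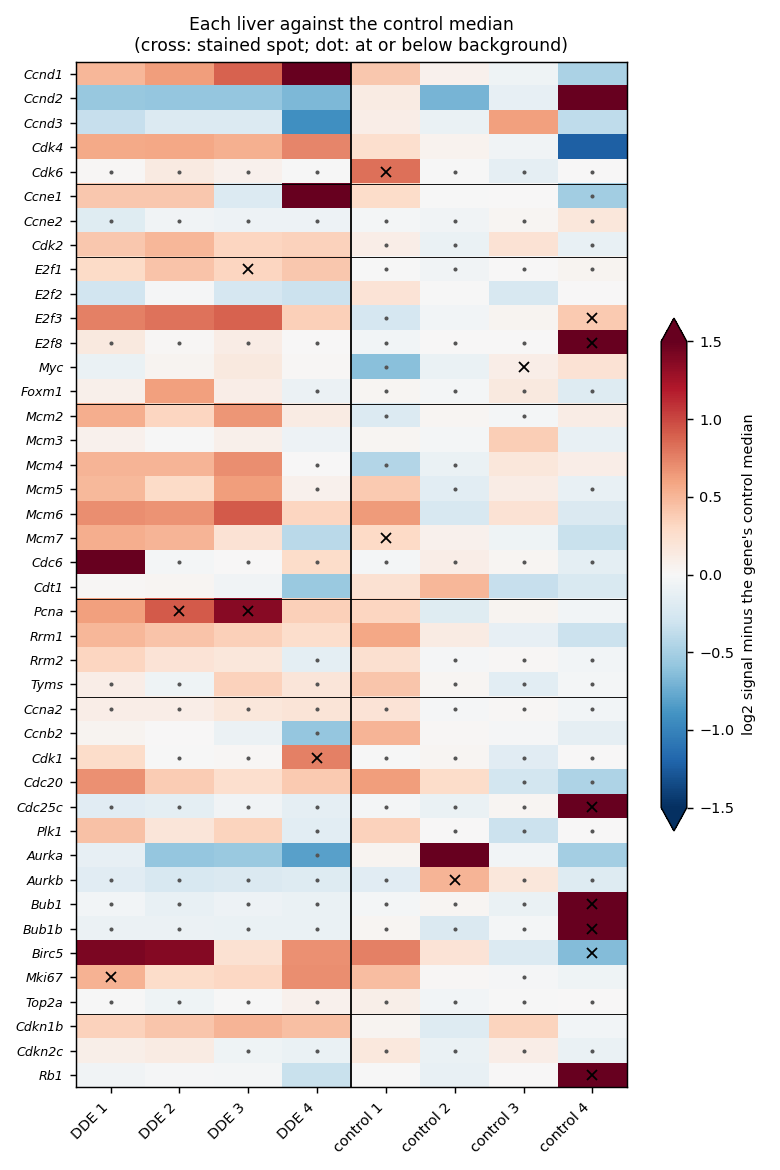
Log2 signal of each gene (rows, grouped by role) in each liver (columns, DDE on the left) minus the gene's control median, with colour held at -1.5 and 1.5. Crosses mark stained spots and dots values at or below background. Mcm2, Mcm4, Mcm6 and Pcna are red in DDE 1 to DDE 3, and the deep red cells of E2f8, Cdc25c, Bub1, Bub1b and Rb1 in control 4 are stained spots.

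To set these genes beside the rest of the pathway, 157 further genes were listed. Of the 155 with a probe, 4 rose, 1 fell and 150 did not pass, with a median difference of 0.06. The share called, 3.23%, was near the 3.35% of all genes. At a raw p below 0.05, 23 were higher (14.8%) and 6 lower, against 11.4% and 4.57% of all genes. The groups lay without overlap higher in 18 (11.6%) and lower in 5, against 8.48% and 4.06% of all genes. Cks1b, a small subunit that binds cyclin-dependent kinases and helps to degrade p27, had 10.68, 10.85, 10.83 and 10.60 in DDE livers against 9.75, 9.95, 9.82 and 9.53 in control livers. The groups were far apart relative to their spread (1.97-fold, limma adjusted p = 0.00932), and Cks1b passed in 18 of 19 alternatives (adjusted p = 0.00488 to 0.0572). Wee1, the kinase that restrains Cdk1 before mitosis and is also under the control of the circadian clock, had 8.83, 9.31, 9.73 and 8.77 in DDE livers against 7.44, 7.52, 7.77 and 7.56 in control livers. Only control 3 of the controls was above background (log2 difference 1.59, limma adjusted p = 0.0175). Lin37, a subunit of the DREAM complex that silences cell cycle genes in resting cells, had 9.18, 9.34, 9.19 and 8.74 in DDE livers against 8.07, 7.91, 7.56 and 7.13 in control livers (1.44, limma adjusted p = 0.0252). All DDE livers and 2 of 4 control livers were above background.

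Pole2, a subunit of the replicative DNA polymerase epsilon, had 8.05, 8.38, 7.69 and 8.07 in DDE livers against 7.18, 7.24, 7.17 and 7.30 in control livers, all of which were below background. With control values raised to background, the DDE mean was 1.29-fold higher (fitted difference 0.82, limma adjusted p = 0.031). The DDE values too lay below the 0.99 quantile of the receptor probes on their arrays, so no minimum fold can be read from them. Knstrn, a kinetochore and spindle protein also called kinastrin, fell 3.38-fold at the brighter of its 2 probes (limma adjusted p = 0.031). That probe had 11.72, 11.69, 11.02 and 11.09 in DDE livers against 13.15, 13.04, 13.81 and 12.54 in control livers. The mean of the 2 probes differed by -0.87 (limma adjusted p = 0.0343), against -1.755 at the brighter probe alone. The dimmer probe thus did not share this fall. The spots of the brighter probe in control 3 and control 4 were stained, and its unstained controls still lay above all DDE livers. The call of Knstrn was lost in 8 of 19 alternatives, that of Pole2 in 10, that of Lin37 in 6 and that of Wee1 in 3.

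**Figure D5:**
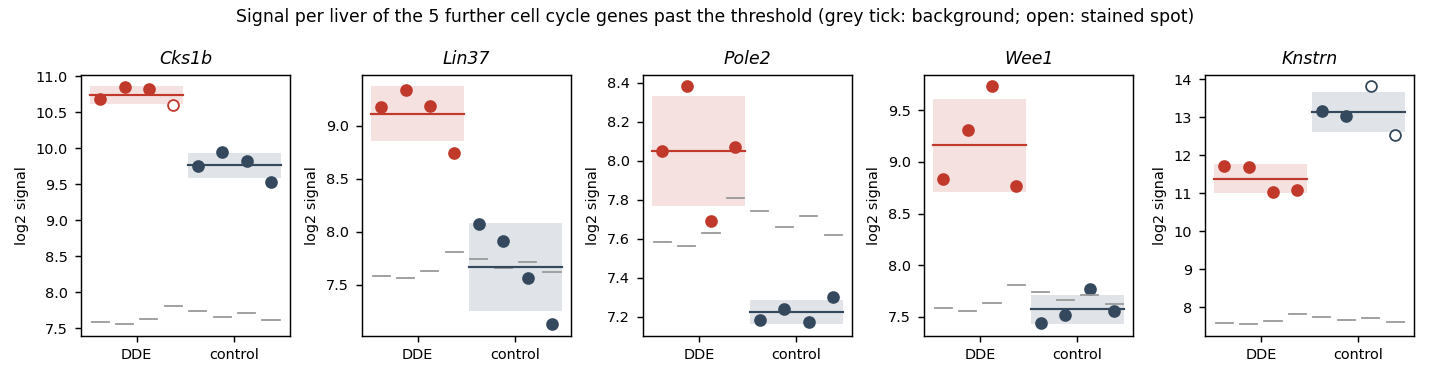
Log2 signal per liver of the 5 further cell cycle genes past the threshold, DDE livers on the left (replicates 1 to 4) and control livers on the right. Lines are group means, bands 1 SD, grey ticks the background and open points stained spots. DDE livers lie above control livers in Cks1b, Lin37, Pole2 and Wee1 and below them in Knstrn.

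By role, 1 of 19 further G1 and G1/S regulators, 1 of 13 further E2F and DREAM factors and 1 of 44 further origin and fork genes rose and none of these lists held a fall past the threshold, while among 60 further mitosis and checkpoint genes 1 rose and 1 fell. Mcm10, an origin factor that helps to start the helicase and is named after its values were seen, had 11.38, 10.56, 10.24 and 9.4 in DDE livers against 12.1, 12.32, 12.62 and 12.12 in control livers. All DDE livers lay below all controls (-1.90, limma adjusted p = 0.0537), and it passed in 6 of 19 alternatives, lower in each (adjusted p = 0.0192 to 0.138 over the 19). In the 12 measured genes of nucleotide supply 0 passed. Shmt1, which feeds one-carbon units to thymidylate synthesis, had the smallest p (0.83, limma adjusted p = 0.115). At a raw p below 0.05, 2 of these 12 genes were higher (16.7%) and 0 lower, against 11.4% and 4.57% of all genes. In the 7 further inhibitors and pocket proteins 0 passed, and 1 was lower at a raw p below 0.05, as were 4.57% of all genes. That gene was Cdkn1a, which encodes the inhibitor p21 and had 7.85, 7.78, 7.90 and 7.52 in DDE livers against 8.52, 8.06, 9.01 and 9.30 in control livers (-0.96, limma adjusted p = 0.121). Its 2 highest values were stained spots of control 3 and control 4, and without stained spots the difference was -0.16 at another probe of the gene, then the brightest. Of the 11 probes of Cdkn1a, 10 had negative differences, with a median of -0.41, and 1 passed the threshold.

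Markers of the cells a liver sample can hold gave the following levels. All 8 hepatocyte markers were above background in all livers, most of them within 1 of the ceiling at 16, where differences may be understated, and their summed log2 signal was 118 to 121 in DDE livers and 120 to 121 in control livers, with Apoa1 lower and 0 higher in the limma fit. Of 7 erythroid markers, Gata1 and Klf1, the defining erythroid transcription factors, were above background in no liver, 1 was called (Tfrc, the transferrin receptor, higher), and the sum was 75.7 to 76.6 in DDE livers and 72.5 to 76.2 in control livers. Of 10 T, B and NK cell markers, Cd79a, Ms4a1, Ncr1 and Klrb1c were above background in no liver (78.6 to 81.9 in DDE livers and 76.5 to 82.1 in control livers). Kupffer cell markers summed to 71.6 to 75.5 in DDE livers and 70.7 to 78.5 in control livers, with 0 of 8 called. Stellate cell markers summed to 65.1 to 69.8 in DDE livers and 62.69 to 66.05 in control livers, with 1 of 7 called (Reln, higher, above background in 2 livers). The highest of these sums, in DDE 4, held Des at 13.65 on a stained spot. In DDE 1, DDE 2 and DDE 3 Des had 7.84, 7.93 and 7.81, below its 8.08 to 9.33 in control livers. By a raw p below 0.05, 4 stellate markers were higher, all without overlap (Lrat, Col1a1, Col3a1 and Reln), and 1, Dcn, was lower without overlap. Among all genes 11.4% were higher and 4.57% lower at that p, and 8.48% lay without overlap higher and 4.06% lower. Besides the called genes, markers of other lists also had a raw p below 0.05. These were Cd5l, Nkg7 and Elane, lower, and Retnlg, Cdh5 and Alas2, higher, with overlapping groups in Nkg7 and Alas2 only. Neutrophil and monocyte markers summed to 56.1 to 62.1 in DDE livers and 57.0 to 63.4 in control livers, with Ccr2 above background in no liver and 0 of 7 called. Endothelial markers summed to 66.9 to 69.3 in DDE livers and 67.0 to 71.2 in control livers, with 0 of 7 called. Markers of cholangiocytes, the bile duct cells, and of progenitor cells formed 1 list. They summed to 37.2 to 38.3 in DDE livers and 38.4 to 49.6 in control livers, with 0 of 5 called and all 5 lower in mean. The high control sums came from single values, Sox9 at 13.68 in control 4 and Afp at 13.67 in control 1, both on stained spots, and Krt19 at 12.12 in control 1 on an unstained one. Single high values on stained spots also entered other lists. These were Adgre1 at 11.53 in DDE 2, S100a8 at 13.54 in control 3, Cd3g at 10.98 in control 2 and Cd2 at 9.93 in DDE 4. The sums overlapped between the groups in each of these lists but that of cholangiocytes and progenitors. The part of these cells in the results above was not tested.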

How the data were processed

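The deposited table held log2 signals of 42957 probes on 8 arrays. Per the labels' protocols, Cy3 cRNA was made from 50 ng of total liver RNA; the sources used here do not give the background correction or normalization. Array medians were 7.46 to 7.47, and the log2 values were used as deposited. The supplied platform annotation gave 1 symbol for 33009 probes and none for 9948. How well the probes bind Mus spretus transcripts was not tested.

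All probes were fitted with limma 3.58.1 in R 4.3.3 (lmFit and eBayes, DDE against control, 4 arrays each, no covariate), two-sided, with Benjamini-Hochberg adjustment over all probes and a threshold of 0.05. The fit was run on simulated data with independent noise per probe and no stained patches. How it behaves with such patches was not tested. Nothing states that the labels' replicate numbers mark shared animals or batches. Stained spots were those whose neighbours, over 7 rows by 5 columns of feature numbers, deviated from their probes' medians by more than 0.3 in the median. Alternatives were quantile normalization, 75th percentile centring, leaving out dim probes, a trended robust variance, array weights, a replicate block, leaving out each array, the mean of a gene's probes and leaving out stained spots. Leaving out control 4 and DDE 4 together, choosing probes by their median, and all alternatives for the further cell cycle genes were added after seeing the data. The genes and lists were chosen with earlier results of these data known. All 42 measured genes are named, with the further cell cycle genes past the threshold, or the smallest p of a list with none. Sgol1 was matched as Sgo1. Promoter and probe sequences were not used here.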

Additional observations from a re-analysis of the deposited data

Results flagged for a closer look

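A liver stood far from the other 3 of its group in 11 of 94 groups examined, and chance gives about 1 in 20. Of these 11 values, 6 were stained spots, and 5 came from control 4. In control livers, control 4 was high for E2f8 (12.94, others 7.18 to 7.22), Cdc25c (10.25, others 7.23 to 7.36), Bub1 (11.86, others 7.15 to 7.28), Bub1b (15.92, others 7.12 to 7.37) and Rb1 (10, others 8.39 to 8.51), all on stained spots. Cdk6 was high in control 1 (8.08, others 7.11 to 7.26), also on a stained spot, as was Mki67 on an unstained one (8.18, others 7.65 to 7.74).

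In DDE livers, Cdc6 was high in DDE 1 (11.85, others 7.22 to 7.52) and Ccne2 low there (6.88, others 6.99 to 7.01, all below background). DDE 4 was low for Cdt1 (8.03, others 8.53 to 8.61) and for Rb1 (8.17, others 8.45 to 8.49), with neither spot stained.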

How the results depend on the processing

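The count of cell cycle genes called changed with many settings because E2f1 and E2f3 lay near the threshold. It was 0 with a trended robust variance, without the dimmer probes (33 genes tested) and with the replicate block, 0 (without DDE 1, DDE 2, DDE 3, control 1, control 2 or control 3) to 2 (without DDE 4) over fits that left out 1 array, and 2, E2f1 and E2f3, with array weights, without stained spots and without control 4 and DDE 4. With stained spots left out and the rest renormalized the 1 gene called was E2f3. The median difference was above 0 in all alternatives run, 0.30 without the dimmer probes and otherwise 0.095 (mean of probes) to 0.20, with 0.0962 after leaving out stained spots and renormalizing, against 0.16. Of 789 single-gene comparisons, 771 kept direction and call or moved by less than the replicate spread. Above background, 7 genes remained with the 0.99 quantile and 14 when all 8 livers were required. Over all probes, 1289 were called, and 2140 with array weights, 511 with the trended robust variance, 775 genes when probes of a gene were averaged, 332 (without DDE 2) to 1596 (without DDE 4) without 1 array, and 2593 with stained spots left out and the rest renormalized. In that last setting 1504 were higher and 1089 lower (58.0% higher), against 1005 and 284. With the replicate block 9 probes were called. Deviations of same-numbered livers correlated at -0.01 to 0.08 across probes, though the stained share ranked alike by number in both groups. Whether same-numbered livers shared a processing step cannot be read from these correlations and was not tested. The further cell cycle genes called were 5, and 9 with array weights, 9 without stained spots, 10 after renormalizing those, 0 with the replicate block and 1 (without DDE 2 or control 2) to 8 (without DDE 4) without 1 array. The causes were not tested. Differences within the range of the background probes cannot be read at this signal.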
